A study of Mus musculus with 15 samples.

Results

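The comparison set 2 kinds of mouse embryonic stem cell sample, titled XS and S, against each other within the single labelled culture Serum/LIF. Members were taken by their labels: the lists of decreased H2A.X domains of XS lines 30, 31 and 32 and of S lines 35 and 37. These are 5 of the 15 samples of the series, 5 of the 10 samples with a list, and 9295 of 23031 deposited domains, of which 9139 are XS domains and 156 are S domains. Both groups carry the strain 129S6 X C57B6, the antibody H2A.X and the culture with serum and LIF on irradiated feeder fibroblasts. No drug, allele or genotype is given for either group, and what S and XS stand for is not given in the sources used here. The lines are male and female, but the sex of each line is not among the labels used here. No line number occurs in both groups, so culture title and cell line cannot be told apart. Lines 35 and 37 also have lists from 2i/LIF, a serum-free medium with inhibitors of Mek and Gsk3.

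H2A.X is a variant of histone H2A built into nucleosomes along the genome and is best known for the phosphorylation of its tail around DNA double-strand breaks. In native ChIP, chromatin is cut into nucleosomes by micrococcal nuclease without crosslinking, and the nucleosomes that hold the variant are pulled down with an antibody. Broad domains called from such data are stretches of neighbouring bins in which the signal stays to one side of a control. Serum with LIF keeps mouse embryonic stem cells self-renewing in a state more varied between cells than that in 2i/LIF.

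A decreased domain is, by the name of its list, a region with less H2A.X than a control. The state column of every list instead names a sample as enriched, so the direction rests on the names alone. The control of each list is not given in the sources used here. The lists hold no read counts, so the depth behind each is unknown, and nothing in them can be set against markers of stem cells or feeder cells. All domains lie on a grid of 1300 bp bins on the 19 autosomes, and shares are of the 2412 Mb from the first to the last bin of each autosome that is covered in any of the 10 lists. The fifth deposited column, whose meaning is not given, held values above 0 in all 26 domains of S line 35 and all 130 of S line 37, but in only 8, 10 and 2 domains of XS lines 30, 31 and 32. Whether S and XS domains are calls of 1 kind was not tested, and no comparison here takes account of it. Nothing states that the samples came from separate cultures, so the p-values speak only to the spread among these samples, and that spread may be technical. S line 34 has no list analysed here.

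Domains were shorter at the median in the S lists than in the XS lists, but their lengths overlapped. The middle 50% of domains ran from 21.1 to 102 kb in S line 37 and from 42.9 to 165 kb in XS line 32. The median domain length was 29.3 kb in S line 35 and 44.2 kb in S line 37. It was 203 kb in XS line 30, 394 kb in XS line 31 and 79.3 kb in XS line 32. Every XS median lay above both S medians, with means of 225 ± 159 kb (SD, n = 3) and 36.7 ± 10.6 kb (SD, n = 2). For the difference of 189 kb the two-sided exact permutation test gave p = 0.2, the smallest that 3 lists against 2 allow, and a Benjamini-Hochberg adjusted value of 0.2 over the 5 list measures compared. It was 104 kb without XS line 31, the list with the longest domains, and 419 kb among the higher-scoring 50% of each list. That filter ranks domains by the deposited score of the whole domain, which is at most its number of bins. It therefore favours long domains and is no separate check of length. The same order of groups held for the number of domains, 2534, 2213 and 4392 in XS against 26 and 130 in S, and for covered length, 877, 1755 and 736 Mb against 0.920 and 9.19 Mb (exact permutation p = 0.2 for each).

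The groups differed at both ends of the length range. Domains of at most 13 kb made up 38.5% of the list of S line 35 and 16.9% of that of S line 37, but 1.03%, 1.13% and 0.888% of the lists of XS lines 30, 31 and 32. In numbers these were 10 and 22 short S domains and 26, 25 and 39 short XS domains, so the difference in number of domains lay almost wholly above 13 kb. No S domain exceeded 1 Mb, and the longest was 91 kb in S line 35 and 476 kb in S line 37. Both measures depend on list size, and these lists hold only 26 and 130 domains. The part played by list size was not tested. Domains over 1 Mb numbered 159, 503 and 102 in the XS lists and held 29.0%, 67.5% and 22.3% of their covered length. The longest XS domain of all, in XS line 31, spanned 19.5 Mb on chromosome 16 (65295101 to 84805500, mm9). XS line 30 covered 63.2% and XS line 32 80.3% of that interval, and neither S list covered any of it. The longest domain of XS line 30 was 4.84 Mb on chromosome 14 (107827201 to 112671000), and that of XS line 32 was 4.73 Mb on chromosome 16 (67835301 to 72568600).

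**Figure D1:**
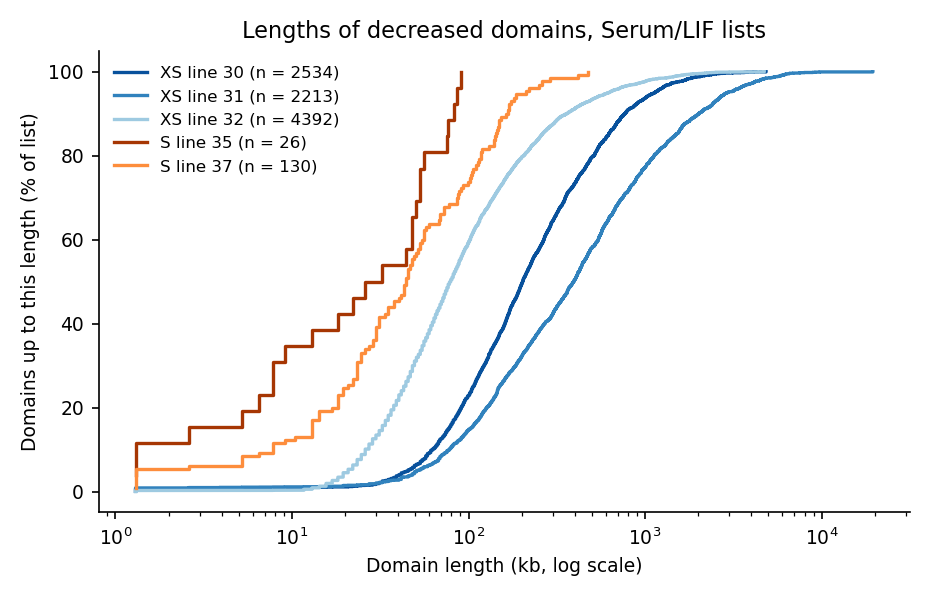
Cumulative share of domains (vertical axis, % of each list) by domain length (horizontal axis, kb, log scale) for the 3 XS and 2 S lists. The curves of S lines 35 and 37, with medians of 29.3 and 44.2 kb, lie left of all XS curves, whose medians run from 79.3 to 394 kb.

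Score per bin, the deposited score of a domain divided by its number of bins, was lower in the S lists. The score never exceeds the number of bins, so the ratio lies between 0 and 1. Its median was 0.401 in S line 35 and 0.576 in S line 37, compared with 0.691, 0.639 and 0.790 in XS lines 30, 31 and 32. The groups did not overlap, with means of 0.488 ± 0.124 (SD, n = 2) and 0.707 ± 0.0770 (SD, n = 3). For the difference of 0.218 the two-sided exact permutation test again gave the lowest p it can reach, 0.2. It was 0.130 without S line 35. A score per bin under 0.5 was found in 61.5% of the domains of S line 35 and 38.5% of those of S line 37, but in 1.58%, 4.88% and 0.296% of the XS domains of lines 30, 31 and 32. In 2i/LIF the same 2 lines had medians of 0.721 (line 35) and 0.793 (line 37), both above the S value of the same line.

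The lower score of S domains was seen at medium and long lengths and not among the shortest domains. Among domains over 13 to 52 kb the median score per bin was 0.251 in S line 35 (8 domains) and 0.621 in S line 37 (53 domains). In the same band it was 0.789, 0.681 and 0.821 in XS lines 30, 31 and 32. Every XS median again lay above both S medians, and over 13 to 130 kb the group difference was 0.271 (exact permutation p = 0.2). Over 52 to 130 kb the medians were 0.378 and 0.557 in S against 0.727, 0.649 and 0.768 in XS. Above 130 kb S line 35 had no domain, and the 24 domains of S line 37 had a median of 0.493 against 0.673, 0.637 and 0.770. Among domains up to 13 kb the order turned: the S medians of 0.683 and 0.682 exceeded those of XS lines 30 and 31, 0.505 and 0.470, and lay under that of XS line 32, 0.758. There the difference, XS minus S, was -0.105 (exact permutation p = 0.6, two-sided), within the spread between lists. These bands were chosen after the values of whole lists had been seen.

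**Figure D2:**
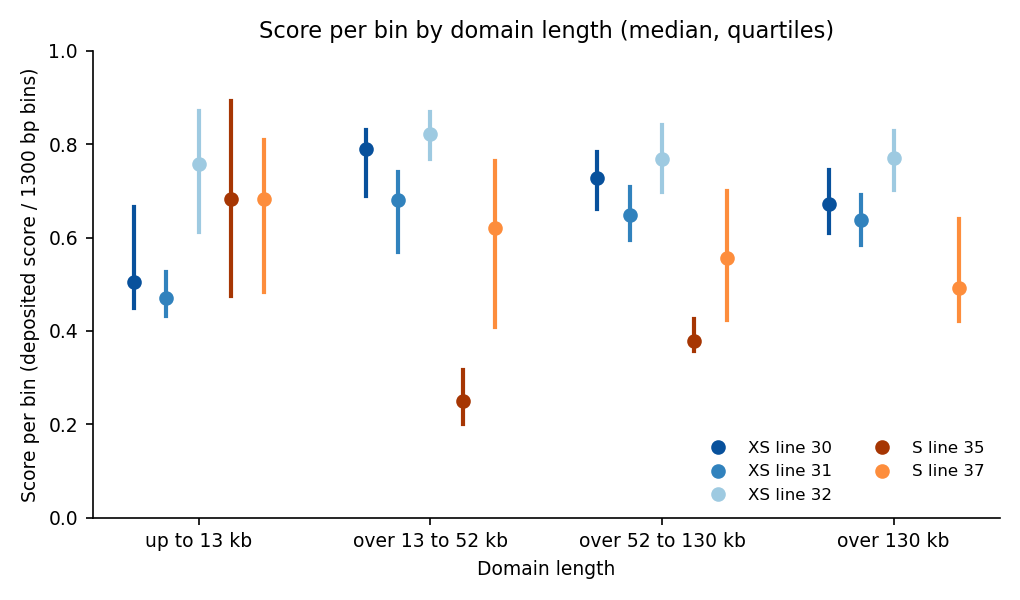
Median score per bin (points) with quartiles (vertical bars) for domains of each list in 4 length bands; the vertical axis is the deposited score divided by the number of 1300 bp bins. In the bands over 13 kb both S lists lie below all XS lists, whereas up to 13 kb the S medians of 0.683 and 0.682 lie between those of XS lines 31 and 32; S line 35 has no domain over 130 kb.

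Single S domains ranged over nearly the whole scale of score per bin. The highest value in S line 35, 0.993, belonged to a domain of 1.3 kb on chromosome 8 (69897101 to 69898400). The highest in S line 37, 0.998, belonged to 13 kb on chromosome 4 (3005601 to 3018600), which S line 35 listed with identical ends and a value of 0.816. The lowest were 0.197 on chromosome 5 (15115101 to 15141100) in S line 35 and 0.0847 on chromosome 14 (42530801 to 42564600) in S line 37. In all, 12 domains had identical ends in both S lists, and their score per bin was higher in line 37 at 11 of these and lower at 1. At these 12 places the median was 0.387 in line 35 and 0.483 in line 37. The place with the lower value in line 37 was chromosome 5 from 15005901 to 15024100, at 0.186 against 0.275.

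Chromosome 13 aside, XS domains were spread over the autosomes nearly in proportion to chromosome size, and the far fewer S domains were not. Lists as small as the S lists can depart from an even spread through their size alone, which was not tested. Each XS list covered at least 30.5% of the span and each S list at most 0.381%. The order of coverage on single autosomes therefore largely follows list size and is no measure of evenness. Of the 19 autosomes, 18 (94.7%) had a higher share covered in every XS list than in either S list. The exception was chromosome 13, of which XS line 32 covered 0.0821% with 3 domains, less than the 0.588% that S line 37 covered with 10. XS lines 30 and 31 covered 21.6% and 61.9% of chromosome 13, their lowest values too. For 18 single autosomes the exact permutation p was 0.2 and for chromosome 13 it was 0.4, with adjusted values of 0.211 and 0.4 (Benjamini-Hochberg over 19), so no autosome could pass.

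The percentage of covered length that would have to move to other autosomes to give an even spread was 6.05%, 2.02% and 8.57% in XS lines 30, 31 and 32. It was 58.2% in S line 35 and 25.3% in S line 37. Both S values exceeded all XS values, with a difference of -36.2 percentage points, XS minus S (p = 0.2 by the two-sided exact permutation test), and of -19.8 without S line 35. The part played by list size in this measure was not tested, and the S lists hold 26 and 130 domains against at least 2213. XS shares lay within 1.5 times the share of the span, up or down, on 18, 19 and 18 autosomes, compared with 2 in S line 35 and 7 in S line 37. S line 35 had no domain on 10 autosomes, and chromosomes 5, 4, 17, 1 and 11 held 84.7% of its length. S line 37 had domains on all 19, and chromosomes 7, 17, 4, 12 and 13 held 49.3% of its length.

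Chromosome 17 was the only autosome with over 2.5 times its share of the span in both S lists. It held 3.99 times its share in S line 35 (3 domains) and 2.72 times in S line 37 (8 domains), where it was the most covered autosome at 1.03%. Single domains made up much of this, 85.8 of 140.4 kb in S line 35 and 475.8 of 954.2 kb in S line 37. Chromosome 4 held 3.19 and 1.55 times its share in S lines 35 and 37. In the XS lists chromosome 17 held 1.20, 0.997 and 1.17 times its share. The most covered autosome of S line 35 was chromosome 5, at 0.177% or 4.65 times its share, against 1.21 times in S line 37. The most covered autosomes of the XS lists were chromosome 11 in line 30 (46.7%) and chromosome 16 in lines 31 and 32 (79.98% and 38.4%). As shares of their own length, the S lists went opposite ways on these chromosomes. Chromosome 16 held 1.47 times its share in S line 35 and 0.302 times in S line 37. These were 1 domain of 53.3 kb in S line 35 and 2 domains totalling 109.2 kb in S line 37. Chromosome 11 held 1.66 times its share in S line 35 and 0.276 times in S line 37, where it was the least covered. There the lists had 1 domain of 75.4 kb and 2 totalling 124.8 kb. On both chromosomes S line 37 covered the whole of the S line 35 domain.

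**Figure D3:**
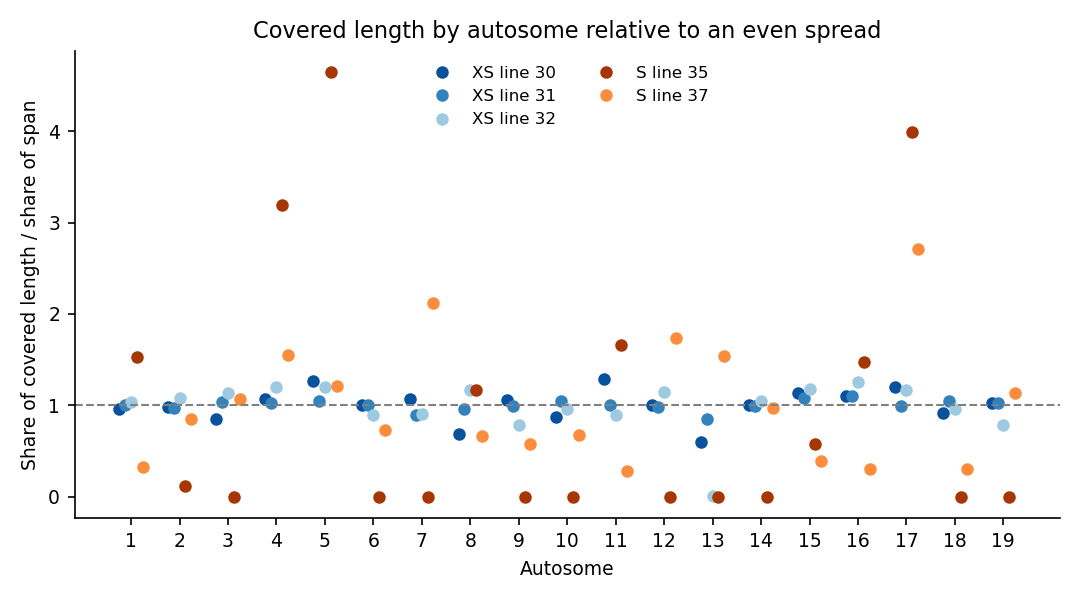
Share of each list's covered length on an autosome divided by that autosome's share of the span (vertical axis) for the 19 autosomes (horizontal axis); the dashed line at 1 is an even spread. XS points lie between 0.690 and 1.29 apart from chromosome 13, at 0.596, 0.850 and 0.00269 in lines 30, 31 and 32, whereas S points reach 4.65 on chromosome 5 in line 35 and 2.72 on chromosome 17 in line 37, and S line 35 has 10 autosomes at 0.

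S domains lay mostly where no XS list had a domain, although XS domains covered 74.9% of the span. Only 6.07% of the length of S line 35 and 6.54% of that of S line 37 lay inside any XS domain. Against single XS lists, which covered 36.3% (line 30), 72.8% (line 31) and 30.5% (line 32) of all bins, the shares for S line 35 were 0.847%, 6.07% and 0.847%. For S line 37 they were 2.28%, 5.65% and 1.06%. The mean share for the 2 S lists was 6.31%, and without XS line 31, the widest list, it was 1.65%. Of 26 domains of S line 35, 24 were touched by no XS domain, as were 109 of the 130 of S line 37. Bins that any list from 2i/LIF, or from 2i/LIF followed by Serum/LIF, covered lay inside XS domains over 80.9% of their length. Those other lists together covered 86.5% of the span but 34.04% and 41.2% of the length of S lines 35 and 37. In 15 domains of S line 35 and 54 of S line 37, none of the 8 wide lists had any bin. With 2 S lists there is no test of these shares.

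The uncovered stretches that held S domains were long. The span had 2347 stretches without any XS domain, with a median of 148 kb, and 50% of their length lay in stretches of at least 456 kb. The 14 distinct stretches that held untouched domains of S line 35 had a median of 737 kb, and the 80 of S line 37 had a median of 620 kb. A place drawn by length falls more often in a long stretch, so the value by length is the nearer background. Stretches over 500 kb made up 46.8% of the uncovered length, compared with 66.7% of the 24 untouched domains of S line 35 and 67.9% of the 109 of S line 37. The median untouched S domain filled 2.63% of its stretch in S line 35 and 8.40% in S line 37.

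S domains also lay farther from XS borders than the typical uncovered bin. From its midpoint, the median S domain was 161 kb from the nearest start or end of any XS domain in S line 35 and 165 kb in S line 37, compared with 52.7 kb for all bins of the span. Counted from the nearest end, untouched S domains had a median distance of 176 kb (line 35) and 157 kb (line 37), and all bins in no XS domain had 95.6 kb. Distances over 100 kb occurred in 66.7% and 58.7% of these untouched S domains and in 48.4% of the uncovered bins. Distances over 500 kb occurred in 16.7% and 16.5% of the untouched domains, against 8.15% of the uncovered bins. Since neighbouring S domains can share a stretch, these domains are not independent of each other: the 24 lie in 14 stretches and the 109 in 80.

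The distance depended on which XS list set the borders. The mean of the 2 S medians, 163 kb, rested on XS line 31 and was 292 kb without it. Against single lists the medians for S lines 35 and 37 were 501 and 389 kb for XS line 30, 215 and 181 kb for XS line 31, and 584 kb each for XS line 32. For all bins of the span the medians were 200, 240 and 153 kb. Against XS lines 30 and 32 both S lists were thus farther than the median bin, and against XS line 31, which leaves few uncovered bins, both were nearer. Most S domains lie outside XS domains, so bins outside each list are the nearer background. Their medians were 281, 107 and 220 kb for XS lines 30, 31 and 32, each less than both S values. On chromosome 13, where XS line 32 has 3 domains, S line 37 had a domain (12894701 to 13033800) whose midpoint was 43889 kb from a border of that list.

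**Figure D4:**
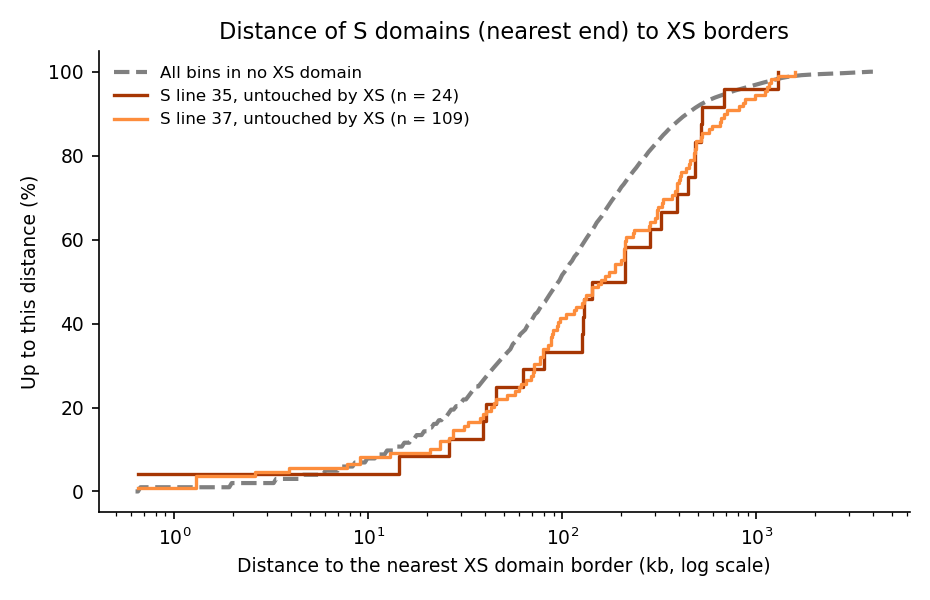
Cumulative share (vertical axis, %) of S domains that no XS domain touches, by distance of their nearest end to an XS border (horizontal axis, kb, log scale), with all bins outside XS domains as a dashed line. Both S curves run to the right of the dashed line over most of the range, with medians of 176 and 157 kb against 95.6 kb.

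XS coverage was low in the surroundings of S domains, which follows in part from their place in long uncovered stretches. No profile around other uncovered bins was made, so these values are no separate evidence. In the first 50 kb from the ends of the domains of S line 37, XS lines 30, 31 and 32 covered 9.50%, 14.1% and 3.96%. From 500 to 550 kb away they covered 26.5%, 48.7% and 15.5%, and from 1950 to 2000 kb 32.9%, 62.7% and 20.6%, which for each list was still below its share of the span. Around S line 35 the first 50 kb were covered over 5.59%, 10.4% and 1.47%. There the values from 1950 to 2000 kb were 24.9%, 56.5% and 21.5%. Coverage was thus higher in the last window than in the first in all 6 pairs of lists, though it did not climb at every step. Around S line 35 it passed the share of the span in 1 window for XS line 30 (38.3% from 1600 to 1650 kb) and in 1 for XS line 32 (34.2% from 1500 to 1550 kb).

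**Figure D5:**
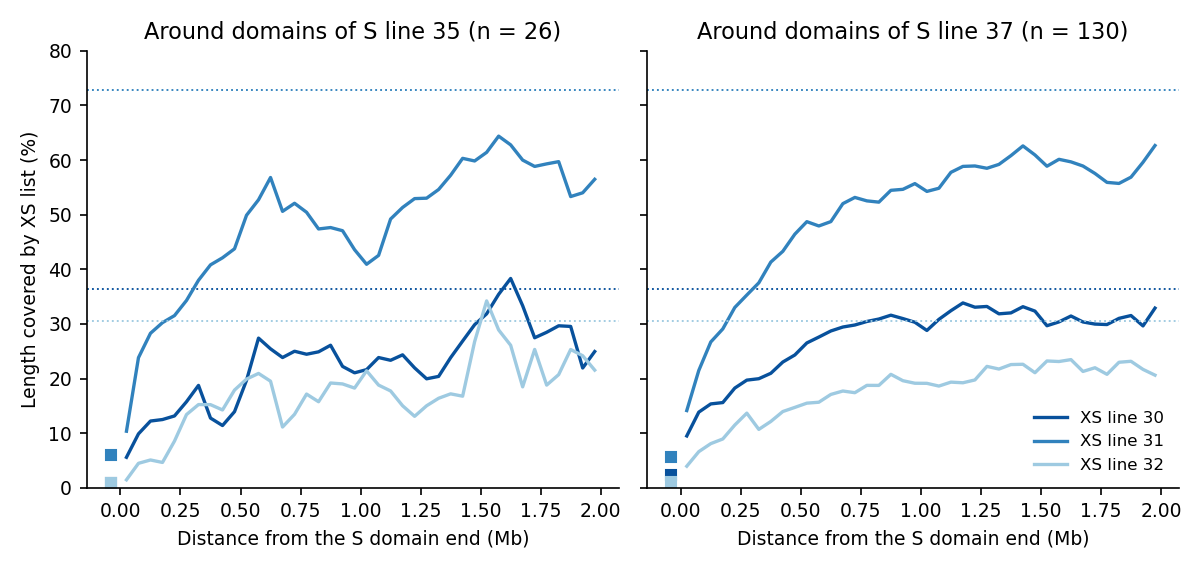
Length covered by each XS list (vertical axis, %) in windows of 50 kb up to 2 Mb from the ends of S domains (horizontal axis, Mb, both sides together); squares left of 0 are the coverage inside S domains and dotted lines the coverage of the whole span. For S line 37 coverage by XS line 31 runs from 5.65% inside the domains to 14.1% in the first window and 62.7% in the last, under its 72.8% of the span.

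The longest S domains were outside all XS lists. In S line 35 these were chr5:26332801-26423800 (91 kb, score per bin 0.299) and chr17:3000401-3086200 (85.8 kb, 0.510), in mm9. Next came chr4:145037101-145120300 (83.2 kb, 0.377), chr5:14903201-14979900 (76.7 kb, 0.235) and chr11:3025101-3100500 (75.4 kb, 0.962). All 5 were covered completely by S line 37 as well. Its own longest were chr17:30585101-31060900 (476 kb, 0.910) and chr7:48282001-48700600 (419 kb, 0.396). Shorter were chr4:144940901-145229500 (289 kb, 0.513), chr2:150035601-150295600 (260 kb, 0.423) and chr13:62453301-62702900 (249.6 kb, 0.482). Of these 5, S line 35 touched only the place on chromosome 4, which holds the third longest domain of each list. The domain on chromosome 17 combined the greatest length with a high score per bin and lay in an uncovered stretch of 634 kb, with its nearest end 27.3 kb from an XS border. Farthest from any XS border were chromosome 4 from 3005601 to 3018600 in S line 35, at 1299 kb from its midpoint, and chromosome 9 from 3038101 to 3068000 in S line 37, at 1599.65 kb.

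Both of these lie at the start of a chromosome's span. The first 300 kb of the 19 spans make up 0.237% of all bins, but held 24.7% of the length of S line 35 (4 domains on 4 autosomes) and 8.38% of that of S line 37 (11 domains on 10 autosomes). A span starts at the first bin in any list, S lists included, so these shares are partly set by the definition: 3 of the 4 domains and 8 of the 11 begin at the first bin of their span. The domains that begin later, 1 and 3, make up 8.19% and 1.63% of the length of S lines 35 and 37. The first 300 kb held 0.115%, 0.0966% and 0.0189% of the length of XS lines 30, 31 and 32. XS lists together covered 33.5% of these first 300 kb, against 74.9% of the whole span. With the S domains of these starts left out, the mean share of S length inside XS domains was 7.60%, against 6.31% with them.

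S domains also occurred in groups. In S line 35, 13 of 26 domains had another of the same list within 1 Mb, and in S line 37 it was 52 of 130. The largest group in S line 37 had 8 domains over 2246 kb on chromosome 4 (144940901 to 147187300), with 724 kb covered and no XS domain touching. A group of 4 domains on chromosome 5 was found in both lists, from 14903201 to 15223000 in S line 35 and from 14873301 to 15208700 in S line 37. Its median score per bin was low in both, at 0.219 and 0.229. A group of 6 on chromosome 13 (65479701 to 66878500) in S line 37 was the only group of 3 or more in which XS domains touched any member, namely 2.

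XS domains touched 2 domains of S line 35 and 21 of S line 37. In S line 37, 10 of these 21 were touched by 1 XS list, 6 by 2 and 5 by all 3. One place was common to all 5 lists: chromosome 2 from 27350701 to 27358500. There S line 35 and XS line 32 had identical ends, with scores per bin of 0.945 and 1.00, the latter the highest of its list. XS lines 30 and 31 had domains of 11.7 and 23.4 kb with the same end, at 0.975 and 0.816. In S line 37 the domain reached on to 27375400. In XS lines 30 and 31 a further domain, of 1308 and 1325 kb, began at 27358501. Both lists thus covered all 24.7 kb of the S line 37 domain. Both longer domains had a fifth-column value below 0. All 3 XS domains that end at 27358500 had one above 0, as all S domains do. The same held on chromosome 3, where S line 37 had 42.9 kb (25416301 to 25459200, score per bin 0.941) and the XS lists had 50.7, 41.6 and 41.6 kb at 0.977, 0.990 and 0.984. Of the 20 XS domains with that value above 0, 8 touched an S domain. Of all 9139 XS domains 41 (0.449%) did so, and 33 of these had a value below 0.

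Contacts ranged from identical places to partly shared edges. Identical ends joined 10 of the 44 touching pairs of an S and an XS domain. Examples are 1.3 kb on chromosome 7 (11464701 to 11466000) in S line 37 and all XS lists, and 48.1 kb on chromosome 17 (23169901 to 23218000) in S line 35 and XS line 31. The longest was 110.5 kb on chromosome 7 (33036901 to 33147400) in S line 37 and XS line 31, with scores per bin of 0.209 and 0.281. A further 25 pairs, all of S line 37, were partial overlaps. Of the rest, 6 were S domains inside a longer XS domain and 3 the reverse. A partial overlap was chromosome 6 from 103598301 to 103611300, whose end lay inside XS domains of 1291, 4440 and 1037 kb. On chromosome 4, S line 37 had a domain from 118220701 to 118241500, and all 3 XS lists had domains starting at 118222001. The S domain with the most length inside XS was chromosome 14 from 54115101 to 54258100 (143 kb, XS line 31 only), followed in overlap by the 110.5 kb on chromosome 7 and by chromosome 14 from 53696501 to 53764100 (67.6 kb, identical in XS line 31). Chromosome 2 from 22397701 to 22449700 shared 41.6 of its 52 kb with XS domains, the same length as the place on chromosome 3.

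A minority of S domain ends fell exactly on the start or end of an XS domain, though a larger share than among all bin edges. Of the 52 ends of S line 35, 5 (9.62%) fell exactly on a start or end of an XS domain, and of the 260 ends of S line 37, 19 (7.31%), against 0.954% of all bin edges. Most of these belong to the identical domains above: without S domains that have an identical XS domain, 1 of 48 ends (2.08%) and 7 of 248 (2.82%) remained. The nearest S domain to an XS border in S line 35, chromosome 8 from 69897101 to 69898400, adjoined a domain of XS line 32 without overlap.

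Among the XS lists, the narrower ones lay almost wholly inside the widest. XS line 31 covered 94.9% of the length of XS line 30 and 98.6% of that of XS line 32, where its share of the span was 72.8%. In turn these lists covered 47.4% and 41.3% of XS line 31. XS line 32 covered 54.6% of XS line 30, and XS line 30 covered 65.1% of XS line 32. All 3 XS lists shared 19.8% of the span, 477 Mb, in 3038 stretches with a median of 84.5 kb. Of the length of S lines 35 and 37, 0.847% and 0.835% lay in that shared part. Borders within 10 kb of each other were more frequent than among bin edges in all 6 pairings: 14.9% of the borders of XS line 30 had a border of XS line 31 within 10 kb and 15.7% one of XS line 32, against 3.53% and 7.003% of all bin edges. The excess was least for borders of XS line 32 near XS line 31, at 5.79% against 3.53%. Median distances between these 2 lists lay above those of bin edges, at 300.3 against 239 kb from line 32 to line 31 and 174 against 153 kb from line 31 to line 32.

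The longest stretches in all 3 XS lists were far from S domains. They were chr14:107827201-112115900 (4289 kb), chr16:68636101-72438600 (3802.5 kb) and chr4:111718101-113816300 (2098 kb). Shorter were chr14:81802501-83895500 (2093 kb) and chr4:66582101-68478800 (1897 kb). The nearest domain of either S list was 37734, 25824.5, 4404, 11709 and 30129 kb away, in that order. No gene was assigned to any of these places.

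The S lists also lay mostly outside the 2i/LIF lists of their own lines. S line 35 had 30.6% of its length in its 2i/LIF list, which covered 78.2% of the span, and S line 37 had 17.3% in its own, which covered 44.8%. Against XS line 31, with 72.8% of the span, the shares were 6.07% and 5.65%. Whether the S lists avoid XS more than 2i/LIF domains was not tested.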

How the data were processed

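Deposited lists of domains decreased against a control, 1 per H2A.X sample, were analysed for 5 Serum/LIF samples, with the other 5 lists as reference. Reads were aligned with Bowtie2 2.0.6 to mm9, as the submitters' processing notes name them. Which caller made the domains, with which settings, controls or pooling, is not given in the sources used here. The authors deposited a score per domain, which was divided by the number of 1300 bp bins, and a second score of undefined meaning, of which only the sign was used. The state column names a sample as enriched in every list, whereas the list names say decreased; the direction follows the names. Coordinates are 1-based mm9. The gene table at hand is of GRCm38.p6: its last gene on chromosome 1 ends at 195291439, and the last domain at 197194400, so no gene or sequence was assigned.

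Groups came from the titles. Values per list were compared by two-sided exact permutation tests of means; domains were not treated as replicates. Positions of S domains were described beside the same measure over all bins. Regions were named by rank: the 5 longest S domains per list, up to 5 with most XS overlap, extremes of distance and score, the longest XS domains and common stretches, and extreme autosomes; clusters, contacts and chromosome starts were added after seeing the data. Members and rules were chosen with earlier results of these data known. Functions were tested on simulated lists. Alternatives were length and score filters, joining, scales, other spans, other XS sets, and omission of each list or of chromosome 13. Tables and tests used pandas 2.3.3, scipy 1.17.1 and numpy 2.4.6 under Python 3.11.15, and plots matplotlib 3.10.9.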

Additional observations from a re-analysis of the deposited data

How the results depend on the processing

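All 5 tested measures kept their direction under 54 of 55 alternatives. The exception was score per bin among domains up to 13 kb alone, chosen after seeing the data, with a difference, XS minus S, of -0.105. The groups did not overlap in any of the 5 measures. Omitting a list or taking the log10 scale therefore could not reverse a direction, so those alternatives are no test of it. No setting could pass a threshold, since the smallest exact permutation p is 0.2, 0.333 without an XS list and 0.5 without an S list. Leaving out each list gave differences of 2295.5 to 3385 domains, 801 to 1311 Mb, 104 to 262 kb in median length, 0.130 to 0.306 in score per bin and -52.6 to -19.8 percentage points in departure from an even spread. No paired analysis was possible because the XS and S lists share no line number.

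Shares of S length inside XS domains and distances to XS borders, means of both S lists, moved with the set of XS bins. With XS line 30, 31 or 32 alone the share was 1.56%, 5.86% or 0.954% and the distance 445, 198 or 584 kb. With bins in at least 2 or all 3 XS lists the values were 1.23% and 394 kb, or 0.841% and 1067 kb. With the higher-scoring 50% of each list they were 1.17% and 452 kb. Leaving out each list gave 1.65% to 6.54% and 161 to 292 kb. The distance was 118 kb from the nearest end, 158 kb with domains closer than 10 kb joined and, chosen after seeing the data, 160 kb without chromosome 13, 183 kb with merged XS borders and 166 kb for untouched S domains from their nearest end. Without the first 300 kb of each span, also chosen later, the share was 7.60%. For the same S domains, a subset of the XS bins cannot raise the share, and a subset of the XS borders cannot shorten the distance. The higher-scoring setting also filters the S domains. The cause of that shift and of the others was not tested. Of 23 S domains touching XS domains, 19 did so over at least 50% of their length. The lists give no depth, so no counting interval was computed.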

Other observations

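Among the short domains of the XS lists, those with a fifth-column value above 0 numbered 7 in line 30, 8 in line 31 and 1 in line 32, out of 26, 25 and 39 domains up to 13 kb. The lowest scores per bin of XS lines 30 and 31, 0.113 and 0.107, belonged to domains on chromosome 12, from 19294601 to 19315400 and from 21931001 to 21960900. S line 37 had domains nearby, 19084001 to 19215300 with a score per bin of 0.300 and 21529301 to 21668400 with 0.471, which no XS list touched. These domains of S line 37 were chosen after their values were seen. Domains of S line 37 that S line 35 also touched, 22 of 130, had a median length of 48.1 kb and a median score per bin of 0.533, and the other 108 had 43.6 kb and 0.592.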
